A study of Homo sapiens with 6 samples.

Results

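The long intergenic noncoding RNAs of K562 cells, genes whose approved symbol begins with LINC, were followed through iron chelation. Members were the GENCODE v44 genes of type lncRNA with a name starting with LINC and without the antisense suffix, whose estimated read counts, summed over transcripts, totalled more than 60 over the 6 libraries. This gave 521 genes of 62252 genes in all. GENCODE v44 held 2265 LINC genes, of which 2261 had a transcript in the files; 1086 of them were listed at 0 in every library and 654 had a total above 0 and up to 60. LINC02930, LINC01019 and LINC02681, with totals of 60.8, 61.0 and 61.6, lay just inside the limit. LINC01338, LINC01530 and LINC01929, each with a total of 60 counts, lay just outside it.

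K562 is an erythroid leukemia cell line that makes fetal and embryonic globins. The Chelator group (3 libraries) had received 10 µM 21H7, a cell-permeable iron chelator, overnight, and the DMSO group (3 libraries) the solvent alone. Both groups were the same line with no other allele or agent given in the labels, and polyA-selected RNA was sequenced from whole cells. Nothing states that the replicates came from separate cultures, so p-values measure the spread between these libraries, which may be technical.

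LINC genes carry a number in place of a descriptive name because they lie outside protein-coding genes and had no known function when they were named. They are transcribed by RNA polymerase II, usually spliced and polyadenylated, and as a class made at low levels and in few cell types. A few are known to act on chromatin or on genes close to them. Iron chelation stops the iron-dependent prolyl hydroxylases that mark hypoxia-inducible factor for destruction, and its target genes, VEGFA among them, are known to rise.

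The promoter sequences of 6 members are shown so that the letters in front of RNAs that rose can be read beside those in front of RNAs that fell. Each is the RefSeq promoter on GRCh38.p14, 250 bases before to 50 after the start, of a called member that averaged 30 or more normalized counts. The RefSeq start lay within 200 bases of the start of the GENCODE gene, which need not be that of its most abundant transcript. LINC01583 (chr15:82088344-82088643, plus strand), LINC01512 (chr6:43890778-43891077, plus), LINC01451 (chr9:136617132-136617431, minus) and LINC00659 (chr20:62776807-62777106, minus) were higher with chelation. LINC00641 (chr14:21206851-21207150, minus) and LINC02469 (chr4:79663457-79663756, plus) were lower. The 6 had the largest rises or falls in log2 fold change among the members so defined. Members on the same chromosome as LINC01300, a large rise described below, were left out of this choice. Capitals mark matches, on either strand, to the hypoxia response element core ACGTG, the AP-1 site TGANTCA, the cAMP response element TGACGTCA, the EGR site GCGTGGGCG, the GATA site AGATAA, the TATA box TATAAA and the CCAAT box CCAAT. No motif lies within another.

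LINC01583: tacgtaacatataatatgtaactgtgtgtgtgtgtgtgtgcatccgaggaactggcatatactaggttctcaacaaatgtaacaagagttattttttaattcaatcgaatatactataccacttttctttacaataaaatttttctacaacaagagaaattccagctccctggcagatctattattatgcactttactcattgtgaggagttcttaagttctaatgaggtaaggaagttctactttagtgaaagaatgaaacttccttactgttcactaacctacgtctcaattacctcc
LINC01512: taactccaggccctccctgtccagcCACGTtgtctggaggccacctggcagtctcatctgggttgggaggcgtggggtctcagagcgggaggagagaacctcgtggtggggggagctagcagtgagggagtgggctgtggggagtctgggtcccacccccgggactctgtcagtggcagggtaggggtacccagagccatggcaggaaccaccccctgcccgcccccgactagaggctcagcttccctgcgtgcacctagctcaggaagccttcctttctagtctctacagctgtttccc
LINC01451: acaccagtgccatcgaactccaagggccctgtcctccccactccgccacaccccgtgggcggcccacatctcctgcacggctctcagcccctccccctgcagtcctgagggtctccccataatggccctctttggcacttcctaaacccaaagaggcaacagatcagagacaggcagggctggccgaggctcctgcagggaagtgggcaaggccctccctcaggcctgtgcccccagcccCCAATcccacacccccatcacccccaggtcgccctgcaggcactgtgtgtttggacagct
LINC00659: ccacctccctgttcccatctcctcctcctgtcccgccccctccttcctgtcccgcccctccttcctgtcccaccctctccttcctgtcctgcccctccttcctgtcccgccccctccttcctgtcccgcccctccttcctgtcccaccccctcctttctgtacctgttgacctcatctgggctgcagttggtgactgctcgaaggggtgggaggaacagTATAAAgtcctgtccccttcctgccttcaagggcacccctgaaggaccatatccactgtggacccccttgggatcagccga
LINC00641: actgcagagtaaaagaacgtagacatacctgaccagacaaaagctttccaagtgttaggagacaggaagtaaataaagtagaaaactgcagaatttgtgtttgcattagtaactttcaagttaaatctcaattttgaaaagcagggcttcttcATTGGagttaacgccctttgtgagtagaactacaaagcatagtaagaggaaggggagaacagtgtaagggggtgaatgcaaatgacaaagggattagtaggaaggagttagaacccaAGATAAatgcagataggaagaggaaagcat
LINC02469: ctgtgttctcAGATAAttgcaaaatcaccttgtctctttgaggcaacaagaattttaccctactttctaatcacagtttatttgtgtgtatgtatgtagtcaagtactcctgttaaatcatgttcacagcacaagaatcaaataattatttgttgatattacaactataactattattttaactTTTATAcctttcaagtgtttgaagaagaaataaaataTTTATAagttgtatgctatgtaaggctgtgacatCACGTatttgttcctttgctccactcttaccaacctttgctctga

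In these windows LINC01583 held none of the 7 motifs. LINC00659 held TATAAA beginning 31 bases before the start, LINC01451 held CCAAT 10 bases before it, and LINC01512 held the reverse complement of ACGTG 225 bases before it. Of the RNAs that fell, LINC02469 held the reverse complement of ACGTG just after the start, AGATAA 240 bases before it, and the reverse complement of TATAAA 66 and 29 bases before it. LINC00641 held the reverse complement of CCAAT 97 bases before the start and AGATAA after it. Of the 521 members, 324 had a RefSeq promoter and 201 had one within 200 bases of the GENCODE start. ACGTG or its reverse complement was in 24.4% of these 201 promoters and in 21.4% of all 35116 promoters of the same length. It was in 2 of the 20 promoters of members called higher and in 4 of the 9 of members called lower. CCAAT was in 40.8% of the member promoters against 34.6% of all, TATAAA in 13.4% against 11.5%, AGATAA in 12.4% against 10.3%, TGANTCA in 9.95% against 7.71%, TGACGTCA in 2.49% against 1.85% and GCGTGGGCG in 0.498% against 0.795%. These matches describe letters and were not tested.

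The libraries held 78615500 to 90383641 estimated counts with DMSO and 85449857 to 101094957 with Chelator. Members took 0.177 to 0.201% of them with DMSO and 0.192 to 0.208% with Chelator. K562 markers were present, with HBG1, HBG2 and HBE1 at 2649 to 7146 TPM, a level scaled to transcript length and library size. The markers of other cell types ALB and CD3E were at most 0.55 TPM, while EPCAM stood at 45.6 to 68.8 TPM. Transcript length minus effective length, a reading of the modelled fragment length, had a median of 252 to 264 bases with DMSO and 200 to 218 bases with Chelator. This was taken over mid-length transcripts under 5 kb with a count of 0, a set chosen in each library. Over all transcripts longer than 5 kb the median was 252 to 274 and 256.1 to 286 bases, and the groups overlapped. By the first reading the length model differed with the treatment, and its part in the results below was not tested beyond the fit without the length correction.

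Most members were low. Their median level was 0.572 TPM, against 11.9 TPM for protein-coding genes and 0.776 TPM for other lncRNA genes past the same count limit. Of the 521, 201 reached a mean of 1 TPM and 40 a mean of 10 TPM. The median total was 288 counts over the 6 libraries, and the 10 highest members held 32.7% of all member counts. The median standard error (SE) of a member's log2 fold change was 0.45 against 0.11 for protein-coding genes, so a change of the same size passed the test less easily in a typical member.

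The most abundant transcript of a member had a median of 3 exons and 1591 bases, and in 50 members it was a single exon. Despite the name, 60 members overlapped the body of a protein-coding gene, 25 of them on the same strand. Exon bases were shared with another gene on the same strand in 61 members and on the opposite strand in 173, while 319 shared none. It is not stated whether counting used the strand, and reads from such pairs may not be told apart. By sequence, 436 members had under 20% of their 31-base words in transcripts of another gene and 18 had over 50%.

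Iron chelation moved 66 of the 521 LINC RNAs by more than 1 on the log2 scale at an adjusted p under 0.05 (DESeq2 Wald test with Benjamini-Hochberg adjustment over all genes). Of these, 51 were higher and 15 lower with Chelator. Among called members that averaged 100 or more normalized counts over both groups without overlap, the largest rise was LINC01300, followed by LINC01451 and LINC00659. The largest fall was LINC00641. LINC01300 and LINC01451 reached that level only through the Chelator group and were low with DMSO. The share called was 12.7%, against 11.5% of all 20102 genes with a total above 60 and an adjusted p. Over all 25553 genes with an adjusted p the share was 10.3%, with 7.81% called higher and 2.46% lower. The share of members called higher was 9.79% against 8.8% of the genes with a total above 60, and the share called lower 2.88% against 2.73%, so the class as a whole was close to the background in both directions. For other lncRNA genes the shares were 7.3% and 3.69%, and for protein-coding genes 9.21% and 2.22%. The median log2 fold change was 0.05 over members and 0.01 over all genes past the limit. Values of the groups did not overlap in 216 members (41.5%), against 55.1% of all genes. Among the 66 called members 65 did not overlap, the exception being LINC00937.

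**Figure D1:**
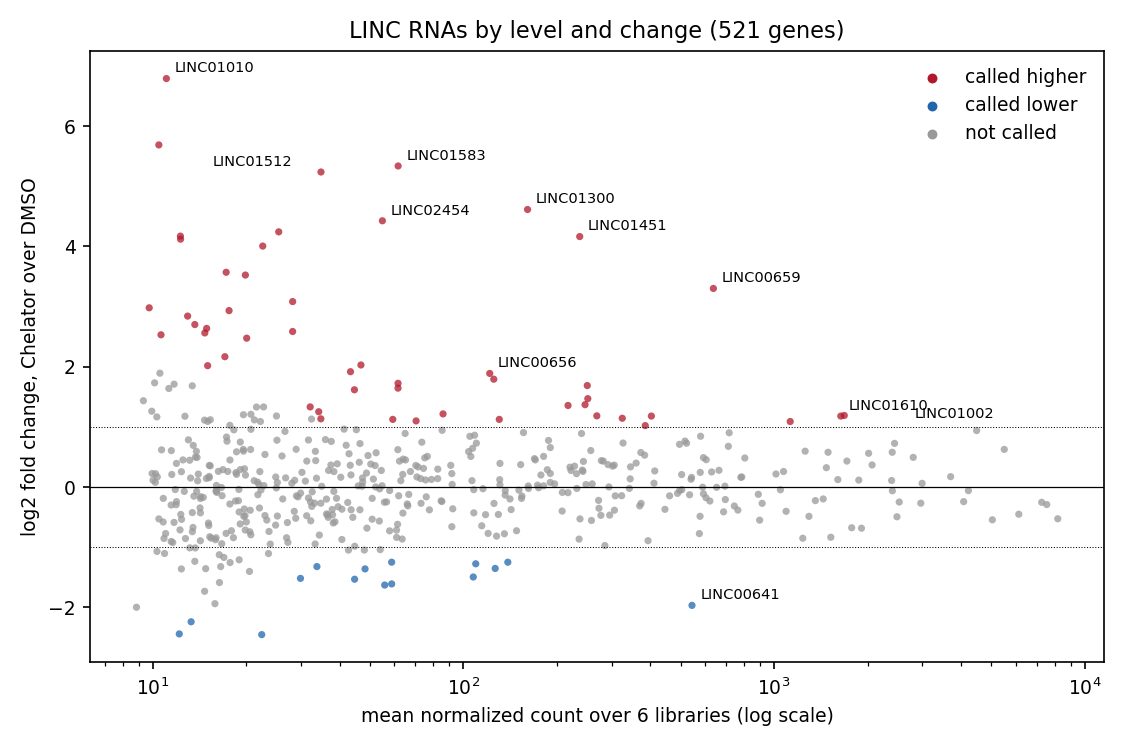
Each point is 1 of the 521 LINC RNAs, with its mean normalized count over the 6 libraries (x, log scale) and its log2 fold change, Chelator over DMSO (y). Red marks the 51 called higher, blue the 15 called lower, grey the rest, and dotted lines a change of 1 in either direction; LINC00659 and LINC00641 are the best counted of the large changes in each direction.

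The total over both groups chose the members, so a gene that passed only through the group where it was high had to differ. In DMSO 45 members had 30 or fewer counts in all, of which 23 were called higher, and in Chelator 21 had 30 or fewer, of which 3 were called lower. The other 40 called members had more than 30 counts in each group, 28 of them higher, and were 8.79% of the 455 members past that limit. Of all genes past it 9.93% were called, 7.23% higher and 2.71% lower. By level, 15 were called higher and 2 lower of 142 members with a mean normalized count under 20, 19 and 8 of 192 between 20 and 100, and 17 and 5 of 187 at 100 or more. Under 20, 10.6% of members were called higher against 9.63% of all genes at that level, and 1.41% lower against 1.73%. Between 20 and 100 the shares of members were below those of all genes, 9.90% against 14.7% higher and 4.17% against 4.82% lower. At 100 or more they were 9.09% against 6.74% higher and 2.67% against 2.20% lower, so members were not on 1 side of the background throughout. When the fold change was tested against 1 itself, 14 members were called (2.69%), 13 higher and 1 lower, against 3.23% of all genes, 2.95% higher and 0.284% lower.

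LINC01300 (chr8:141340505-141344621, plus strand) had normalized counts of 12.7, 16.4 and 8.49 with DMSO and 259, 366 and 302 with Chelator. Every Chelator library lay far above every DMSO library. Its log2 fold change was 4.61 (SE 0.34, adjusted p = 6.02e-39 by DESeq2). LINC01451 (chr9:136612024-136617181, minus strand) gave 33.3, 31.9 and 9.09 with DMSO and 545, 388 and 413 with Chelator, a log2 fold change of 4.16 (SE 0.31). One DMSO library was lower than its group, and the groups stayed far apart. LINC00659 (chr20:62772980-62776996, minus strand) was the best counted of the large rises. It had 127, 112 and 113 with DMSO and 1165, 1212 and 1095 with Chelator, which are means of 117 ± 8.57 and 1158 ± 58.9 (SD, n = 3). The log2 fold change was 3.30 (SE 0.14, adjusted p = 6.34e-114 by DESeq2), and the spread within each group was small beside it.

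The other 5 of the 8 largest rises that averaged 100 or more without overlap were between 1.37 and 1.89 on the log2 scale. LINC00656 rose from 51.7 ± 8.59 to 191 ± 23.6 normalized counts (SD, n = 3) and LINC02772 from 119 ± 12.8 to 382 ± 23.9. LINC01134 rose from 56.8 ± 27.4 to 194 ± 37.9, with DMSO libraries that ranged from 28.6 to 83.3. LINC00392 and LINC01160 rose by 1.47 (SE 0.22) and 1.37 (SE 0.21) on the log2 scale. Both share sequence with other genes, 41.2% and 31.9% of their 31-base words, so part of their counts may belong elsewhere. In all, 17 rises and 5 falls met the limit of level and separation. The level was a mean over both groups, so a member could meet it through the group where it was higher.

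LINC00641 (chr14:21200079-21206900, minus strand) is a single-exon RNA of 5425 bases in its main form. It had 805, 980 and 815 normalized counts with DMSO and 240, 232 and 194 with Chelator. The log2 fold change was -1.97 (SE 0.15, adjusted p = 6.1e-36 by DESeq2), and the lowest DMSO library was more than 3 times the highest Chelator library. The other 4 falls were smaller and closer to each other. LINC02038 went from 159 ± 40.7 to 56.4 ± 3.81 (SD, n = 3), LINC01963 from 182 ± 34.4 to 71.2 ± 21.2, LINC02362 from 155 ± 14.4 to 63.9 ± 12.8 and LINC00960 from 196 ± 5.62 to 82.4 ± 26.6. Their log2 fold changes ran from -1.496 to -1.25, with SEs of 0.27 to 0.30, so all 4 lay within 1 SE of each other.

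**Figure D2:**
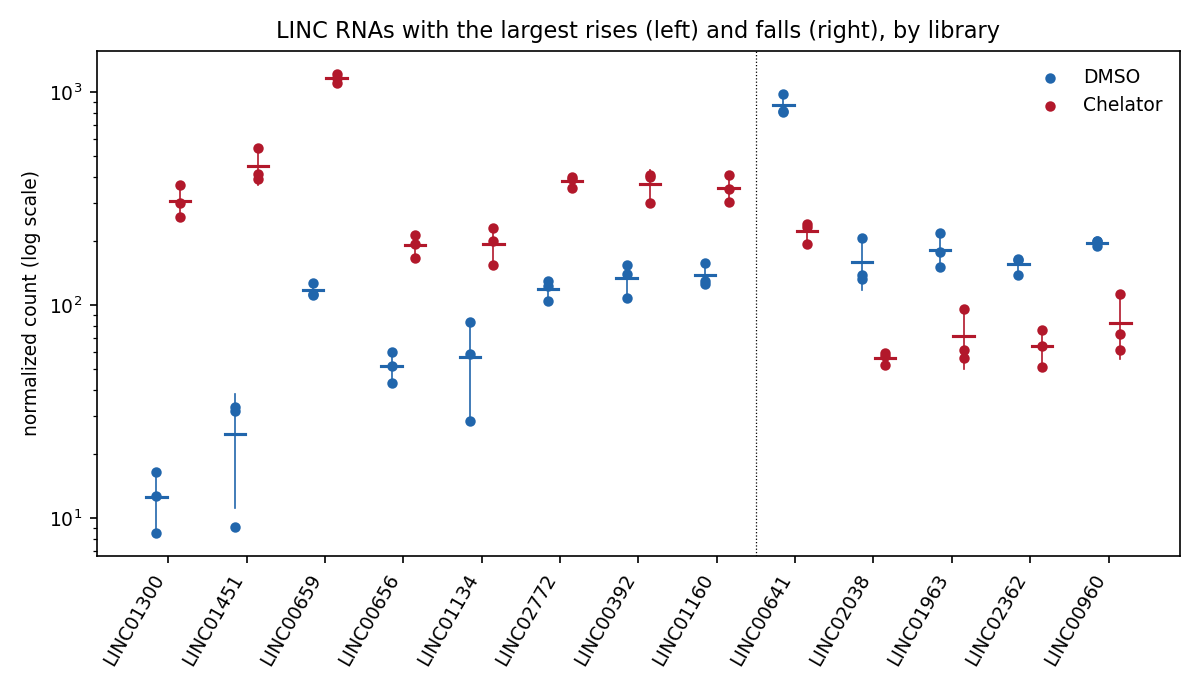
Normalized count (y, log scale) of the 8 largest rises, left of the dotted line, and the 5 falls with a mean of at least 100, by library; points are the 3 DMSO (blue) and 3 Chelator (red) libraries, horizontal lines means and vertical lines 1 SD. No gene shown overlaps between its groups; LINC00659 goes from 112 to 127 up to 1095 to 1212, and LINC00641 from 805 to 980 down to 194 to 240.

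Several of the largest rises were in RNAs almost without counts in DMSO. The genes named here lie outside the rule for level and were chosen after their values were seen. LINC01583 had 2.54, 3.04 and 5.40 normalized counts with DMSO and 126, 107 and 126 with Chelator, with a log2 fold change of 5.34 (SE 0.66). LINC01512 had 3.11, 2.12 and 0 with DMSO and 101.3, 54.3 and 47.9 with Chelator, with a log2 fold change of 5.24 (SE 0.83). LINC02454 had 6.68, 1.75 and 7.03 with DMSO and 105, 109 and 99.7 with Chelator. With Chelator the 3 reached 0.298 to 1.29 TPM, and none overlapped between the groups. LINC01010 had 0 counts in each DMSO library and 42.9, 8.37 and 15.1 normalized counts with Chelator. Against a floor of 3 counts per library it was at least 6.82-fold higher with Chelator, and it was the 1 member at 0 throughout a group. In 14 of the 51 members called higher the DMSO libraries held 10 or fewer counts together, and for these the size of the fold is poorly fixed.

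Of the 6 most abundant members by TPM, which is scaled to length, 1 was called, too few to read against the 11.5% of all genes with a total above 60. This was LINC01610, with 124 TPM on average. It gave 77.7, 70.4 and 75.1 TPM with DMSO and 155, 192 and 173 TPM with Chelator, and its log2 fold change was 1.18 (SE 0.12). Its main form has 404 bases, and without the correction for effective length the log2 fold change was 1.54. LINC01002 rose by 0.94 (SE 0.10) and shares 78.6% of its 31-base words with other genes. LINC00958, with 9664 ± 294 normalized counts with DMSO and 6702 ± 371 with Chelator (SD, n = 3), fell by 0.53 on the log2 scale (SE 0.07). LINC01029 fell by 0.45 (SE 0.09) and LINC01287 by 0.29 (SE 0.07), each with an adjusted p under 0.05 by DESeq2 and neither past the fold limit. Without the length correction their log2 fold changes were -0.77 and -0.15. LINC02864 had a log2 fold change of 0.17 (SE 0.10, adjusted p = 0.166 by DESeq2). It was 0.26 without the length correction (adjusted p = 0.0053 by DESeq2) and 0.068 after centring (adjusted p = 0.68 by DESeq2).

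A panel of 15 LINC RNAs studied for function in other cells was read next. LINC00473 was not found among the names, and LINC00511 and LINC-ROR were under the count limit. Of the 12 measured, 2 were called higher, LINC00467 and LINC01133, and 1 was called lower, LINC00641. With 12 genes these counts are not read against the 8.8% and 2.73% of all genes with a total above 60. LINC00467 had 808, 597 and 759 normalized counts with DMSO and 1522, 1652 and 1421 with Chelator, with a log2 fold change of 1.09 (SE 0.13). It lay so near the fold limit that the call was lost without the length correction (0.91), after centring (0.98) and without DMSO replicate 2 (0.96). LINC01133 had 2.32, 5.33 and 0.892 with DMSO and 29.4, 21.1 and 44.3 with Chelator, with a log2 fold change of 3.57 (SE 0.84) on few counts.

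The rest of the panel stayed under the fold limit or missed the test. LINC00665 rose by 0.49 (SE 0.17, adjusted p = 0.013 by DESeq2) and LINC00662 by 0.37 (SE 0.10), while LINC00667 fell by 0.25 (SE 0.09, adjusted p = 0.023 by DESeq2), and by 0.38 without the length correction. The adjusted p of LINC00665 rose above 0.05 without DMSO replicate 3 (0.073, with a log2 fold change of 0.32), Chelator replicate 2 (0.0997) or Chelator replicate 3 (0.059), and that of LINC00667 without DMSO replicate 1 (0.108), DMSO replicate 3 (0.079), Chelator replicate 1 (0.096) or Chelator replicate 3 (0.105). LINC-PINT, a p53-induced RNA, had a log2 fold change of 0.28 (SE 0.23, adjusted p = 0.37 by DESeq2), with groups that overlapped. Without DMSO replicate 2 it was 0.52 (adjusted p = 0.042 by DESeq2), and without the length correction 0.53 (adjusted p = 0.011). LINC00839, LINC01503 and LINC01128 had log2 fold changes of -0.02 (SE 0.19), -0.12 (SE 0.37) and -0.06 (SE 0.10). LINC01116 gave -1.24 on 8.18 to 19.1 mean normalized counts, with an SE of 0.78. LINC00205 had 1437, 1216 and 2233 with DMSO and 2493, 1933 and 2774 with Chelator. One DMSO library reached into the Chelator range, and the log2 fold change of 0.56 (SE 0.31) missed the threshold (adjusted p = 0.157 by DESeq2). It passed an adjusted p of 0.05, still under the fold limit, without the length correction (0.82, adjusted p = 4.5e-21), with edgeR (0.57, adjusted p = 0.043), with a replicate block (0.59, adjusted p = 1.46e-05 by DESeq2) and without DMSO replicate 3 (0.85, adjusted p = 1.82e-06 by DESeq2).

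Because some RNAs of this class act on nearby genes, each member was set beside the protein-coding gene whose start was nearest to its own. All distances to coding genes are between starts, so a member that overlaps a gene body may be paired with another gene. The median distance was 67264 bases, with 49 members within 5 kb and 212 farther than 100 kb. Over the 419 pairs with an adjusted p for both genes, the log2 fold changes had a Pearson correlation of 0.07 and a Spearman correlation of -0.02, as a description across pairs that share the same 6 libraries. Of 43 members called higher with a tested neighbour, 10 had a neighbour that was called higher (23.3%) and 1 a neighbour that was called lower. Of 363 members not called, 33 had a neighbour called higher (9.09%) and 11 a neighbour called lower. Of 13 members called lower, 2 had a neighbour called higher and none a neighbour called lower. The difference between these shares was not tested.

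The 10 pairs in which both were called higher held 10 different neighbours, 25.2 to 148 kb away. LINC01512 lay 121 kb from VEGFA, the angiogenic growth factor, which had 6387, 5065 and 5450.0 normalized counts with DMSO and 31111, 35365 and 38564 with Chelator, a log2 fold change of 2.64 (SE 0.10). LINC03040, separated from LINC01512 by a gap of 62.4 kb on the same strand, was higher too, by 4.24 (SE 0.82). It shares 277 exon bases with SCIRT, a lncRNA on the opposite strand with a total of 128 counts and a log2 fold change of 7.59. Part of the counts of LINC03040 may therefore belong to SCIRT. LINC01010 lay 25.2 kb from SGK1, a kinase of salt and stress signalling, which rose by 1.94 (SE 0.14). LINC02777 (2.17, SE 0.70) lay 148 kb from JUN, a subunit of AP-1, which rose by 2.31 (SE 0.08). LINC01583 lay 42.5 kb from MEX3B, an RNA-binding protein (1.55, SE 0.07).

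LINC01747 (3.52, SE 0.74) lay 99.9 kb from FOXA2, a forkhead transcription factor, which had 37.9, 57.9 and 35.0 normalized counts with DMSO and 146, 131 and 142 with Chelator. LINC00656, among the large rises above, was separated from LINC01747 by a gap of 440 kb. These and the pair of LINC01512 and LINC03040 were the only pairs of called members within 500 kb of each other. LINC01451 lay 41.7 kb from EGFL7, a secreted endothelial factor that rose by 1.02 (SE 0.08). LINC01300 lay 26.8 kb from GPR20, an orphan receptor that had 0, 1.1 and 0 normalized counts with DMSO and 34.1, 29.5 and 18.7 with Chelator. The remaining pairs were LINC01094 with ANXA3, LINC02625 with ARID5B and LINC02212 with ROPN1L.

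Pairs that moved apart were fewer. LINC01220 fell from 66.4 ± 9.91 to 22.9 ± 3.78 normalized counts (SD, n = 3), 15578 bases from FOS, the partner of JUN in AP-1, which rose by 1.49 (SE 0.17). LINC00960 overlaps ZNF717 on the opposite strand, sharing 668 exon bases, and ZNF717 had a log2 fold change of 0.15. The gene with the nearest start to LINC00960 was FRG2C, a member of a family of near-identical copies, which had 0 counts in all DMSO libraries and 0.8 to 11.5 normalized counts with Chelator. LINC02154 rose by 2.70 (SE 0.89), 16601 bases from ATXN3L, which fell by 1.32 (SE 0.50). Some members close to strongly rising genes were not called. LINC02481, 3334 bases from S100P (5.34), had a log2 fold change of 1.09 (SE 0.76), and LINC01502, 13179 bases from PAEP (6.34), one of -0.64 (SE 0.73).

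**Figure D3:**
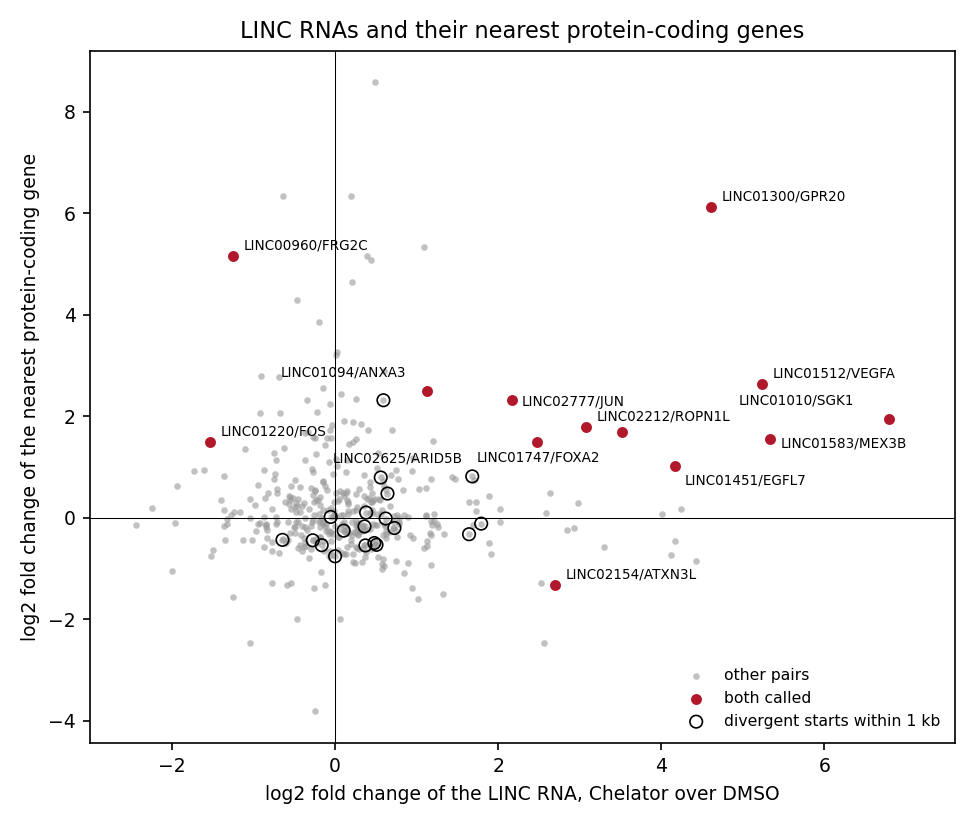
Log2 fold change (Chelator over DMSO) of each LINC RNA (x) and of the protein-coding gene with the nearest start (y) for the 419 pairs with an adjusted p for both; red pairs were both called and are named, and rings mark the 19 pairs whose starts face away from each other within 1 kb. Most pairs lie around 0 on both axes, with 10 red pairs at upper right, 2 at upper left and 1 at lower right.

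Divergent pairs, in which the LINC RNA and the coding gene start within 1 kb of each other on opposite strands, numbered 19. The Pearson correlation was 0.30 and the Spearman correlation 0.50 over these 19 pairs, again as a description. Of them 2 members were called, both higher, LINC01134 beside C1orf174 (-0.12) and LINC02608 beside PPP2R5A (-0.33), and in both the coding gene did not move with the RNA. These 2 of 19 lie near the 11.5% called of all genes with a total above 60. LINC01135 begins 336 bases from JUN and was not called (0.59, SE 0.79), with 6.44, 19.8 and 7.15 normalized counts with DMSO and 22.5, 17.4 and 9.59 with Chelator, while JUN rose.

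Transcript usage, how a gene's reads divide among its transcripts, was tested in the 176 members with at least 2 transcripts of enough counts. The test used estimated counts without a length correction, while the shares given are of the gene's TPM. Usage was called in 8 (4.55%), against 9.22% of the 11938 genes tested (edgeR's diffSpliceDGE with Simes adjusted p under 0.05 and a TPM share change above 5 percentage points). Only LINC00467 was also called for its level. In LINC00467, transcript 226 held 27.2, 32.9 and 35.8% of the TPM with DMSO and 0% in each Chelator library. Transcript 210 went the other way, from 0% in each DMSO library to 19.4, 26.7 and 18.8%, and transcript 219 from 4.49, 6.74 and 12.4% to 28.9, 20.2 and 27.8% (adjusted p = 0.00013 by edgeR). Leaving out Chelator replicate 1, 2 or 3 each gave 4 members called, of which only 3, 1 and 2 were among the 8. LINC00467 was called each time, and was the 1 of the 8 still called without Chelator replicate 2. LINC02980, LINC01088 and LINC-PINT, described next, lost their call whichever Chelator library was left out.

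In LINC02980, 4 of the 5 tested transcripts changed share by more than 5 points. Transcript 207 went from 0% in each DMSO library to 29.7, 36.1 and 32.7%, and transcript 204 from 38.2, 32.6 and 44.1% to 24.7, 0 and 14.8%. Transcript 205 held 45.7, 56.7 and 43.3% with DMSO and 35.1, 32.6 and 40.6% with Chelator, without overlap, and transcript 201 had a mean share of 9.33% and 15.8%, with groups that overlapped. In LINC01088, transcript 208 went from 0% to 15.7, 28.6 and 21.7%, and transcript 213 from 50.2, 43.6 and 57.2% to 32.3, 27.2 and 35.7%. LINC-PINT showed the smallest change of the 4, with transcript 249 at 0% with DMSO and 12.8, 6.97 and 12.4% with Chelator and transcript 213 falling by 13.3 points. The forms that fell and rose share sequence to different degrees. In LINC00467, 55.7% of the 31-base words of transcript 226 are also in transcript 210, and all of those of transcript 208 of LINC01088 (100%) are in transcript 213. In LINC-PINT, 43.9% of those of transcript 213 are in transcript 249. The exact 0% values are estimates that divide reads between forms with shared sequence, and 1 of the 2 readings of modelled fragment length above differed between the groups. Its part in these shares was not tested.

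**Figure D4:**
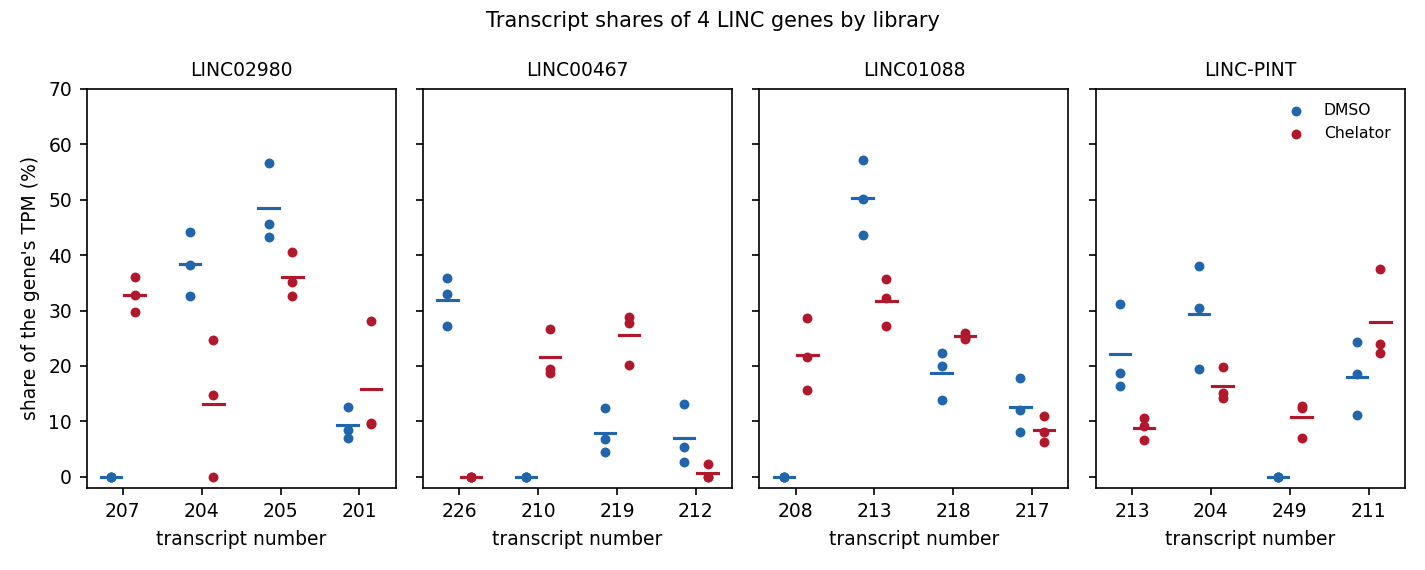
Share of the gene's TPM (y, percent) in the transcripts with the largest share changes of LINC02980, LINC00467, LINC01088 and LINC-PINT, by library; points are DMSO (blue) and Chelator (red) libraries and lines their means, and numbers are the GENCODE transcript numbers. Among the transcripts drawn, 1 in each gene at 0% in all DMSO libraries is above 0% in all Chelator libraries.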

How the data were processed

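PolyA RNA of K562 cells was sequenced as paired ends. Per the labels and the study's methods, the authors checked reads with FastQC and MultiQC and quantified transcripts with Salmon 1.10.2; the deposited files hold estimated counts, TPM and effective lengths per transcript, and the annotation release is not given in the sources used here. Of 252045 transcripts, 251142 matched GENCODE v44 with the same version, 470 with another version and 433 not at all, the last taking 0.139 to 0.150% of counts. Groups were taken from the sample titles. Estimated counts, of which 86.9 to 88.0% of those above 0 were not whole numbers, were summed per gene and rounded, and intervals of counting error are not given since the replicates carry the spread. No 2 libraries agreed within sampling noise. By chi-square per gene, DMSO replicate 2 stood apart from replicates 1 and 3 (57.2 and 40.0, against 7.97 between those). Chelator replicate 1 stood apart from replicates 2 and 3 (27.2 and 25.6, against 6.17 between those). Between the groups the values were 196 to 292.

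Genes with a total above 10 were fitted with DESeq2 1.42.0 (R 4.3.3), with effective length as an offset. Calls needed an absolute log2 fold change above 1 with an adjusted p under 0.05. Normalized counts are divided by the size factors and length offset. Usage was tested with edgeR 4.0.16 (diffSpliceDGE) on transcripts that reached 10 counts in 3 or more libraries. Alternatives used other normalizations, filters, GC and length trends, edgeR's quasi-likelihood test, limma 3.58.1, a replicate block and leaving out each library. The DESeq2 and usage tests were tested on simulated data. The members and lists were chosen with earlier results of these data known. Named were the 8 largest rises and 8 largest falls among called members that averaged 100 or more normalized counts and whose groups did not overlap (only 5 falls met this), the 6 highest by TPM, a panel of 15 studied LINC RNAs, and the 4 largest usage changes at that level.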

Additional observations from a re-analysis of the deposited data

How the results depend on the processing

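Under the 15 alternative fits, 33 of the 51 members called higher and 8 of the 15 called lower were called each time. The count of calls was 53 to 63 when 1 library was left out. With a replicate block it was 57 (46 higher, 11 lower). The deviations of same-numbered libraries correlated at -0.075, 0.130 and 0.101, so the numbers were not taken to pair the samples. Without a fold limit 131 members were called (85 higher, 46 lower), 25.1% of members against 44.1% of all genes with a total above 60, with 16.3% against 22.4% higher and 8.83% against 21.7% lower. With the test set against a change of 1 in place of 0, the count was 14 (13 higher, 1 lower). Restricting members to a total above 600 left 23 (18 higher, 5 lower), 12.2% of members against 9.06% of all genes past that total, and to more than 30 counts in each group 40 (28 higher). The median log2 fold change over members, 0.05, was -0.052 after centring and -0.011 to 0.14 when 1 library was left out. Over all genes fitted the median was -0.080 after centring, which shifts every gene, and 0.0048 to 0.054 when 1 library was left out. Usage was called in 25 members with limma, 5 with at least 50 counts (3 of the main 8), 5 with a share change over 20 points and 6 with the block. When 1 library was left out it was called in 4 to 10. Without Chelator replicate 1, 2 or 3 it was called in 4 each time, of which 3, 1 and 2 were among the main 8. LINC00839 turned from -0.02 to 0.019 with TMM scaling, to 0.0079 with GC and length trends, to 0.0076 with these and the block, to 0.057 without DMSO replicate 2 and to 0.044 without Chelator replicate 2 (-0.11 to 0.057 over the 6 fits with 1 library left out). LINC01503 turned from -0.12 to 0.052 without DMSO replicate 2 and to 0.012 without Chelator replicate 3 (-0.35 to 0.052 over these fits). The cause was not tested. Of the other values for single genes, 438 kept their direction and their side of the call, which needs both the fold and the adjusted p. By the adjusted p alone, 18 values of 5 uncalled genes changed sides of 0.05, 6 of LINC00667, 5 of LINC00205, 4 of LINC00665, 2 of LINC-PINT and 1 of LINC02864. Under the block LINC00667 had 0.065 and LINC00205 1.46e-05, and 8.74e-05 with GC and length trends as well. LINC00667 had 0.065 with TMM scaling and LINC00665 0.055 after centring. LINC01002 passed the fold limit without the length offset (1.09) and when DMSO replicate 2 was left out (1.02). Low counts limit most members, with a median of 288 counts over 6 libraries and a median SE of 0.45.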

Other observations

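Among the 290 LINC genes with a total above 10 and up to 60, which the members leave out, 264 had an adjusted p and 12 were called higher (4.55%) and 5 lower (1.89%) by DESeq2, against 4.18% and 1.47% of all 5451 genes in that range. LINC00261, a lncRNA of the FOXA2 region, had 2, 2 and 3 counts with DMSO and 6, 23 and 10 with Chelator, with a log2 fold change of 3.14 (SE 1.11). LINC01271, LINC02009, LINC03063, LINC01914 and LINC02947 were at 0 in all 3 DMSO libraries, with LINC02009 at 28, 17 and 7 counts with Chelator. LINC02926 was at 0 in all 3 Chelator libraries and at 2, 13 and 4 counts with DMSO. These genes were chosen after their values were seen.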
